A study of Caenorhabditis elegans with 2 samples.

Results

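The genes of the cytochrome P450, UDP-glycosyltransferase and glutathione S-transferase families were examined for candidate binding regions of NHR-237, a nuclear hormone receptor of Caenorhabditis elegans. Members were all protein-coding genes of the WBcel235 Ensembl annotation with symbols starting cyp-, ugt-, gst-, gsto- or gstk-, plus daf-9, a cytochrome P450 gene with another kind of symbol. This gave 191 of 19973 protein-coding genes: 75 cytochrome P450 genes with daf-9, 67 UDP-glycosyltransferase genes and 49 glutathione S-transferase genes, of which 44 are named gst, 3 gsto and 2 gstk. Chromatin immunoprecipitation followed by sequencing (ChIP-seq) was done on whole L3 larvae of pooled males and females of strain OP228, which carries unc-119(ed3) III and the insertion wgIs228 with an eGFP-tagged nhr-237. There were 2 biological replicates of this 1 group, with fragments of 150 to 350 bp, and no second condition. Both replicates are of the same line, and the labels do not give the copy number or the regulatory sequences of the transgene. For each replicate and for the pool of both, the deposited list of peaks and background held 30000 regions, called candidates here because nearly all lie outside the authors' thresholded set. A further list held the 48 peaks that passed the authors' irreproducible discovery rate (IDR) threshold. The signal of a candidate is the authors' own value, of unstated scale, so it was compared by rank within a list only. Read numbers were not stated, so the depth is unknown.

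These enzymes handle drugs, plant and bacterial toxins and the animal's own lipids and hormones. Cytochrome P450 enzymes add oxygen to a substrate with electrons from a reductase, UDP-glycosyltransferases then attach a sugar, and glutathione S-transferases attach the tripeptide glutathione. The conjugates leave the cell through ABC exporters. In C. elegans the gut and the hypodermis are main sites of these genes, many are induced by foreign compounds, and known regulators include the nuclear receptors NHR-8 and NHR-86 and the stress factor SKN-1. DAF-9 makes dafachronic acids, the ligands of the nuclear receptor DAF-12. In whole larvae, occupancy in few cells and weak occupancy in many cells cannot be told apart.

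No member had an IDR peak at its promoter, taken as 1000 bp upstream to 100 bp downstream of the annotated gene start. The count was 0 of 191. Over all protein-coding genes 0.0951% had an IDR peak there (19 genes). As a rough guide, a count of 0 allows a share of up to 1.57%, which is 3 of 191. That figure takes genes as independent, which neighbouring members are not, so it measures no spread between replicates. The IDR summit nearest to any member lay 10973 bp from the start of cyp-31A3. The member of highest signal was gst-7, at rank 1329 of the 30000 pooled candidates. No member reached the top 1000 of the pooled list or of either replicate list. Few protein-coding genes did: 1.42% in the pool, 1.30% in replicate 1 and 1.23% in replicate 2. The 2 cytochrome P450 genes, 1 UDP-glycosyltransferase gene and 2 glutathione S-transferase genes whose sequences are printed here were those of highest pooled signal in their families whose replicate summits lay near the pooled summit and near each other. Only ugt-65 met that condition in its family. The sequences are from the RefSeq genome WBcel235, which is ce11, on the strand of the gene and 5′ to 3′, and span 100 bp to each side of the pooled summit. The piece at cyp-13A2 (chrII:9787630-9787792, minus strand) and that at ugt-65 (chrIV:12420611-12420682, plus strand) stop at the base before the gene start, so that at ugt-65 the summit itself, 28 bp past the start, is not printed. The others are cyp-29A4 (chrV:9653877-9654077, plus strand), gst-7 (chrII:4881772-4881972, plus strand) and gst-11 (chrX:3633763-3633963, minus strand). All bases printed lie outside annotated exons. Capitals mark matches, on either strand, to the 10 motifs whose counts are given with the motif results. Those present were AGGTCA and AGTTCA, hexamers of the kind nuclear receptors bind, read here as their reverse complements TGACCT and TGAACT, and GAGAGA.
cyp-29A4: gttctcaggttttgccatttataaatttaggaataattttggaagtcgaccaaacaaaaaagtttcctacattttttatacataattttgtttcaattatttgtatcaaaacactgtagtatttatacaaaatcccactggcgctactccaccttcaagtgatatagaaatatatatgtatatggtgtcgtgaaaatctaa
cyp-13A2: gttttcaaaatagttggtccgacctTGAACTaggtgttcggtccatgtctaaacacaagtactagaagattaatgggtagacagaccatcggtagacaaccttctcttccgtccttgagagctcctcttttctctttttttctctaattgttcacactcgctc
ugt-65: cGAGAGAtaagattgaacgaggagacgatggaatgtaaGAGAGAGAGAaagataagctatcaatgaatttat
gst-7: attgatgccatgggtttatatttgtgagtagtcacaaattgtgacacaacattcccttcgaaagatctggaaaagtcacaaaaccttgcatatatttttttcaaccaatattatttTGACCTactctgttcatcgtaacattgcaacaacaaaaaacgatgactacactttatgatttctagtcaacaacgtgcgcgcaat
gst-11: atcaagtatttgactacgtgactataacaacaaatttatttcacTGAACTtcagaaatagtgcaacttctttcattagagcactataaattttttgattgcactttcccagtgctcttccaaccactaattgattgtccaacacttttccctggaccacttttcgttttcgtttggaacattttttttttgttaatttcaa
The cyp-29A4 piece held none of the 10 motifs. The gst-7 piece held TGACCT, the gst-11 and cyp-13A2 pieces held TGAACT, and the ugt-65 piece held GAGAGA repeats.

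Promoter candidates were found at members about as often as, or less often than, at protein-coding genes in general. In the pooled list 42 members had one (21.99%), against 31.1% of protein-coding genes. In replicate 1 there were 56 (29.3%), against 30.5%. In replicate 2 there were 49 (25.7%), against 31.2%. The members' share thus lay below the protein-coding share in each of the 3 lists, with the smallest gap in replicate 1. With a window of 2000 bp upstream the pooled order turned, to 97 members (50.8%) against 50.4%. With 500 bp upstream it was 26 members (13.6%) against 18.9%, but for UDP-glycosyltransferase genes alone 13 of 67 (19.4%), above the protein-coding share, as they also were at 2000 bp (58.2%). The pooled list is made from the same reads as the replicate lists and is not a separate measurement. With 1 group and no control strain no test was made.

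The order of the 3 families differed among the lists. In the pooled list a candidate was present at 14 cytochrome P450 genes (18.7%), 17 UDP-glycosyltransferase genes (25.4%) and 11 glutathione S-transferase genes (22.4%). In replicate 1 the counts were 23 (30.7%), 19 (28.4%) and 14 (28.6%), and in replicate 2 they were 21 (28%), 14 (20.9%) and 14 (28.6%). The UDP-glycosyltransferases had the lowest share in replicate 2 and the highest in the pool. In replicate 1 their share nearly equalled that of the glutathione S-transferases (28.4% and 28.6%). The cytochrome P450 genes and the glutathione S-transferase genes changed places between replicates. When protein-coding genes were weighted to the same chromosomes as each family, their pooled share was 31.6%, 31.2% and 30.5%. In the pooled list the shares on chromosome II, with 39 members, and on V, with 92, were 12.8% and 22.8%, against 29.7% and 31.9% of the protein-coding genes there, and on X 6 of 15 members had a candidate (40%, against 36.7% of the protein-coding genes of X).

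**Figure D1:**
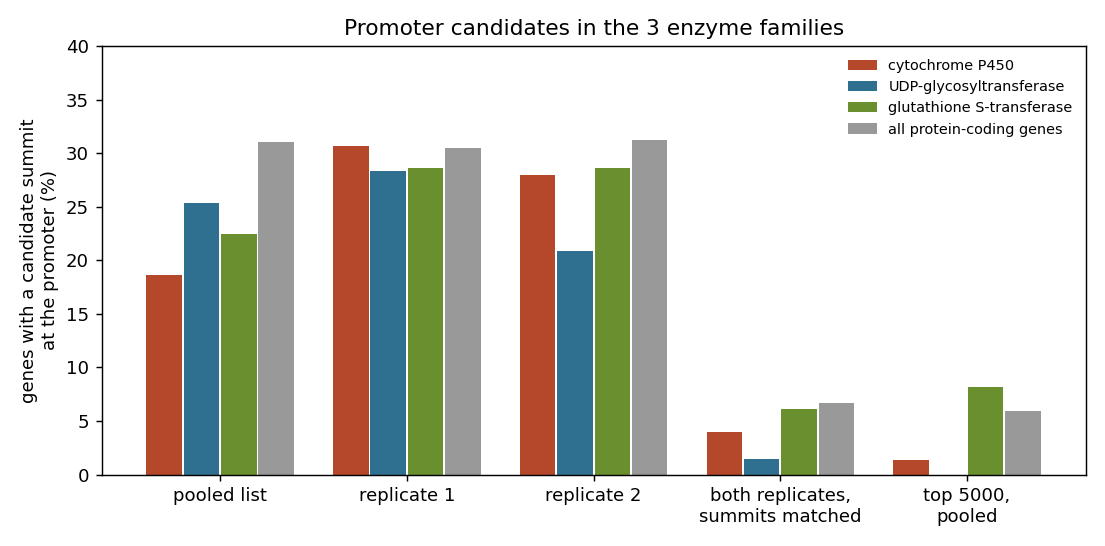
Share of genes (%) with a candidate summit at the promoter, for 75 cytochrome P450, 67 UDP-glycosyltransferase and 49 glutathione S-transferase genes and for all 19973 protein-coding genes, in each list, with replicate summits matched within 100 bp, and among the top 5000 pooled candidates. Bars start at 0 and have no error bar because each is a count over 1 list; no family has the highest share in all 3 lists, and the UDP-glycosyltransferase bar is at 0 for the top 5000.

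The replicates often named different members, as they did over all protein-coding genes. A candidate lay at 88 members in 1 or more lists (46.1%, against 50.8% of protein-coding genes), and at 103 in none. The replicates shared 19 members (9.95%, against 13.3%), 37 were in replicate 1 alone and 30 in replicate 2 alone. Over all protein-coding genes, replicate 1 had 6094 and replicate 2 had 6240, of which 2656 were in both. The summits of the replicates lay within 100 bp of each other at 7 members (3.66%, against 6.68%). These were cyp-29A4, cyp-13A2, cyp-33C12, ugt-65, gst-7, gst-11 and gst-33, and all 7 also had a pooled candidate. Of them, 3 were cytochrome P450 genes, 1 was a UDP-glycosyltransferase gene and 3 were glutathione S-transferase genes. In contrast, 46 members had a candidate in a replicate but not in the pool, and ugt-26 and ugt-9 had one in the pool but in neither replicate. Of the members, 88 had a candidate in 1 or more lists and 42 in the pool. Over all protein-coding genes these counts were 10151 and 6207.

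High-ranking candidates were few. Among the top 5000 pooled candidates were 5 members (2.62%, against 5.89% of protein-coding genes), namely gst-7, cyp-29A4, gst-11, gst-33 and gsto-1. The top 5000 of replicate 1 held 6 members (3.14%, against 6.02%) and that of replicate 2 held 9 (4.71%, against 5.90%). The glutathione S-transferase family supplied 4 of the 5 pooled members, 3 of 6 in replicate 1 and 4 of 9 in replicate 2, which is 8.16%, 6.12% and 8.16% of its 49 genes. For the UDP-glycosyltransferases the counts were 0, 0 and 1 of 67, and for the cytochrome P450 genes 1, 3 and 4 of 75. The share was thus highest in the glutathione S-transferases and lowest in the UDP-glycosyltransferases in both replicates, on counts of 4 or fewer. Replicate summits that matched and were both among the top 10000 were found at cyp-29A4 and gst-7 (1.05% of members, against 1.47%).

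Where a candidate was present, its signal was ordinary for a promoter in the pooled list and in replicate 2, and lower in replicate 1. The median pooled signal was 17.8 for cytochrome P450, 17.1 for UDP-glycosyltransferase and 17.9 for glutathione S-transferase genes, against 17.9 for all protein-coding genes with a candidate. In replicate 1 the medians were 9.34, 9.12 and 9.32, against 10.3, and in replicate 2 they were 9.72, 10.04 and 10.2, against 9.92. As ranks, the median member stood above 36.6% of the regions of replicate 1 and above 54.1% of those of replicate 2, where protein-coding promoters stood above 54.7% and 52.6%. The pooled list ran from 13.8 to 204 and its 5000th region had a signal of 22.5. The signals of the 42 pooled members ran from 14.2 at cyp-36A1 to 27.5 at gst-7.

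**Figure D2:**
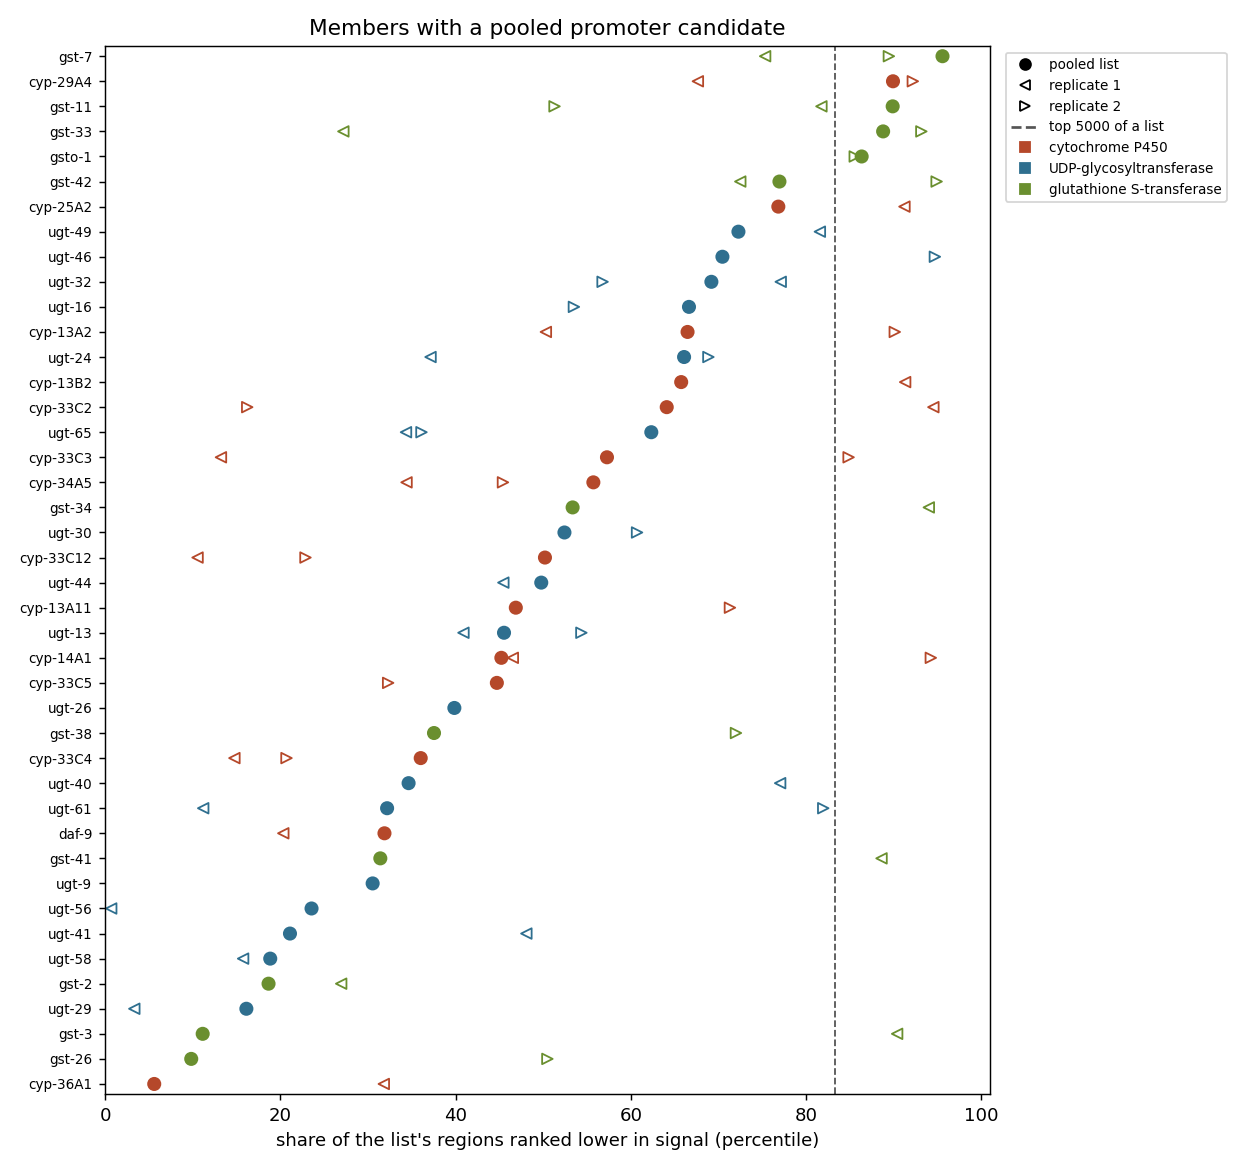
Share of a list's 30000 regions ranked lower in signal (percentile, horizontal axis) for the 42 members with a pooled promoter candidate, ordered by pooled signal. Filled circles are the pooled list, open triangles replicate 1 (left-pointing) and replicate 2 (right-pointing), and a missing triangle is a list without a candidate; the 5 members right of the dashed line in the pool are gst-7, cyp-29A4, gst-11, gst-33 and gsto-1, and of these only gst-7, cyp-29A4, gst-11 and gst-33 have both triangles.

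Among the glutathione S-transferase genes, gst-7 (WBGene00001755, ce11 II 4882062 to 4883358) had a candidate 190 bp upstream of its start with a pooled signal of 27.5. Its signal was 12.1 in replicate 1, at rank 7402, and 14.1 in replicate 2, at rank 3165, and the replicate summits lay 30 bp apart. The candidate lay between protein-coding genes and the nearest protein-coding start was that of gst-7, so position tied it to no other protein-coding gene. Non-coding genes were not examined for this. gst-11 (X 3632367 to 3633754) had a pooled signal of 24.4 at 109 bp upstream, 12.9 in replicate 1 at rank 5475 and 9.84 in replicate 2 at rank 14612. Its replicates placed the summit within 25 bp but not at a like rank.

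For gst-33 the candidate, with a pooled signal of 24.0, lay 980 bp upstream, inside a coding exon of srbc-29, a gene of the chemoreceptor class. Its signal was 8.74 in replicate 1, at rank 21843, and 15.1 in replicate 2, at rank 2053, so its place in the pooled top 5000 went with replicate 2. The gene gsto-1 encodes an omega-class enzyme. It had a pooled signal of 23.2 at 982 bp upstream, none in replicate 1 and 13.3 in replicate 2, at rank 4334. The same summit fell in the promoter window of the collagen gene col-90, whose start was the nearest at 838 bp. gst-42, an orthologue of the human maleylacetoacetate isomerase of tyrosine breakdown, had a pooled signal of 21.1 at 963 bp upstream, nearest to the start of D1053.2. Its 2 replicates marked different sites: replicate 1 gave 11.7 at the pooled summit, and replicate 2 gave 15.7, at rank 1530, at 299 bp upstream. At gst-34 and gst-41 a high rank was seen in replicate 1 alone (15.8 at rank 1798 and 14.1 at rank 3417), and their pooled signals were 17.9 and 15.9. gst-38 had 11.5 in replicate 2 and a pooled signal of 16.4, with the pooled summit in an intron of F35E8.9.

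Several well-studied glutathione S-transferase genes had no promoter candidate in any list. These were gst-4, a widely used reporter gene of SKN-1 and oxidative stress, gst-5 and gst-10, whose enzymes conjugate the lipid peroxidation product 4-hydroxynonenal, and gst-1. At gst-4 the summits lay just past the window: a pooled summit with a signal of 15.0, 202 bp after its start in its own coding exon, and a replicate 1 summit with 8.73, 124 bp after it. Both regions overlapped its window, and the same summits are those counted for gst-2, which is on the other strand. The pooled summit also lay in the promoter window of dhs-12, whose start was the nearest protein-coding start, at 28 bp. Replicate 1 had a summit with 8.35 at 104 bp after the start of gst-5. The promoter window of gst-10 held no 31-base word that occurs once in the genome (0% unique), and what this did to its count was not tested. The windows of gst-1 and gst-4 were 100% unique by that measure. gstk-1, a kappa-class gene, had a candidate in replicate 1 alone, with a signal of 9.04 at rank 20067. That summit also lay in the promoter window of ZK1307.1, whose start was the nearest at 538 bp.

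Among the cytochrome P450 genes, cyp-29A4 (WBGene00007140, V 9654755 to 9658120) had the highest pooled signal, 24.4, at 778 bp upstream. Replicate 1 gave 11.3 at the same summit, at rank 9705, and replicate 2 gave 14.8 at rank 2345, at 81 bp from it. cyp-25A2 had 21.1 in the pool and 14.8 in replicate 1, at rank 2632, and no candidate in replicate 2. cyp-13A2 (II 9783384 to 9787629) had 19.5 in the pool at 63 bp upstream, 9.98 in replicate 1 at rank 14909 and 14.2 in replicate 2 at rank 2963. Of these 3 genes, cyp-29A4 and cyp-13A2 had the candidate in both replicates and cyp-25A2 in 1.

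The next cytochrome P450 genes by pooled signal were cyp-13B2 (19.4), cyp-33C2 (19.1), cyp-33C3 (18.3), cyp-34A5 (18.1) and cyp-33C12 (17.6). The pooled summit of cyp-34A5 lay in a coding exon of cyp-34A6. cyp-13B2 was present in replicate 1, at rank 2608, and absent from replicate 2. cyp-33C2 had the highest signal of any member in replicate 1, 16.0 at rank 1642, but the summit lay in a coding exon of srbc-16, and in replicate 2 its value was 8.06 at another site. cyp-33C3 had the reverse pattern, 8.13 in replicate 1 and 13.2 in replicate 2, at different sites. cyp-33C12 had the closest replicate summits, 2 bp apart and 46 bp upstream in the pool, at low ranks of 26835 and 23139. cyp-14A1, named after its values were seen, had a candidate 5 bp downstream of its start that ranked 1729 in replicate 2 and 16433 in the pool, and replicate 1 had 9.77 at another site.

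daf-9 had a pooled signal of 16.0 at 135 bp upstream, at rank 20435, and 8.44 in replicate 1, at rank 23899, with none in replicate 2. When the window was extended to 2000 bp upstream its highest pooled signal became 23.3. The cyp-35 genes, whose members are induced by many foreign compounds and take part in fat storage, had no pooled candidate at any of 10 genes. cyp-35A1, cyp-35A3, cyp-35A4, cyp-35A5, cyp-35B2 and cyp-35B3 had none in any list, cyp-35A2 had 8.10 in replicate 1 and cyp-35B1 had 7.88 in replicate 2, near the lowest signals of those lists (7.61 and 7.41). The cyp-35A2 summit also lay in the promoter window of exc-13. At cyp-35A4 a pooled summit with 17.2 and a replicate 1 summit with 9.42 lay past the window, 150 and 146 bp after the start. cyp-31A2, whose product is needed with that of cyp-31A3 for eggshell lipid, had none, and cyp-31A3 had 8.59 in replicate 2 alone. The cyp-31A3 summit also lay in the promoter window of memi-1. cyp-33E2, cyp-37B1 and cyp-14A3 also had none. cyp-44A1, the mitochondrial-type cytochrome P450 gene, had 9.19 and cyp-29A2 had 9.65, both in replicate 1 alone. The cyp-44A1 summit lay in an intron of fzy-1. cyp-13A7, a rifampicin-induced gene, shared with its neighbour cyp-13A6 a summit of 11.6 in replicate 2, at rank 8000, that lies in both promoter windows and cannot be assigned to either.

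Among the UDP-glycosyltransferase genes, ugt-49 had the highest pooled signal, 20.3, at rank 8316 and 191 bp upstream. It had 12.9 in replicate 1 and no candidate in replicate 2. ugt-46 had 20.0 in the pool and 15.7 in replicate 2, at rank 1590, the highest rank of the family in any list, and none in replicate 1. Its summit lay in a coding exon of B0310.6, whose start was the nearest. ugt-32 had 19.8 in the pool at 58 bp upstream, 10.2 in replicate 2 within 1 bp of that place and 12.3 in replicate 1 at 233 bp upstream.

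The other UDP-glycosyltransferase genes had pooled signals of 19.5 (ugt-16), 19.4 (ugt-24), 18.9 (ugt-65), 17.8 (ugt-30) and 17.5 (ugt-44). ugt-65 (IV 12420683 to 12432636), the family's matched gene, had its pooled summit 28 bp downstream of the start, and values of 9.10 and 8.97 in replicates 1 and 2, at ranks 19698 and 19168. Its replicates were thus close in place and rank, at a low level. ugt-16 and ugt-30 had a candidate in replicate 2 but not in replicate 1, and ugt-44 in replicate 1 but not in replicate 2. The pooled summit of ugt-24 lay in a coding exon of C49A9.6, whose start was the nearest at 531 bp. ugt-22 had no pooled candidate and 12.9 in replicate 1, at rank 5483, with the summit in an intron of C08F11.7. ugt-23 (9.27, replicate 1) and ugt-63 (10.03, replicate 2) each had a candidate in 1 replicate.

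Summits of the 42 pooled members lay anywhere in the window. The median position was 515 bp upstream for cytochrome P450, 414 bp for UDP-glycosyltransferase and 684 bp for glutathione S-transferase genes, against 423 bp for all protein-coding genes. From 250 bp upstream to 100 bp downstream of the start lay 5 of 14, 8 of 17 and 3 of 11 summits, and 2137 of 6207 for protein-coding genes. Of the 42 summits, 26 lay between protein-coding genes, 8 in coding exons, 3 in untranslated exons and 5 in introns. For 34 the nearest annotated protein-coding start was the member's own, and 4 also lay in another protein-coding gene's promoter window. No pooled summit was shared by 2 members. Many C. elegans messages are trans-spliced, so an annotated start need not be where transcription begins.

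**Figure D3:**
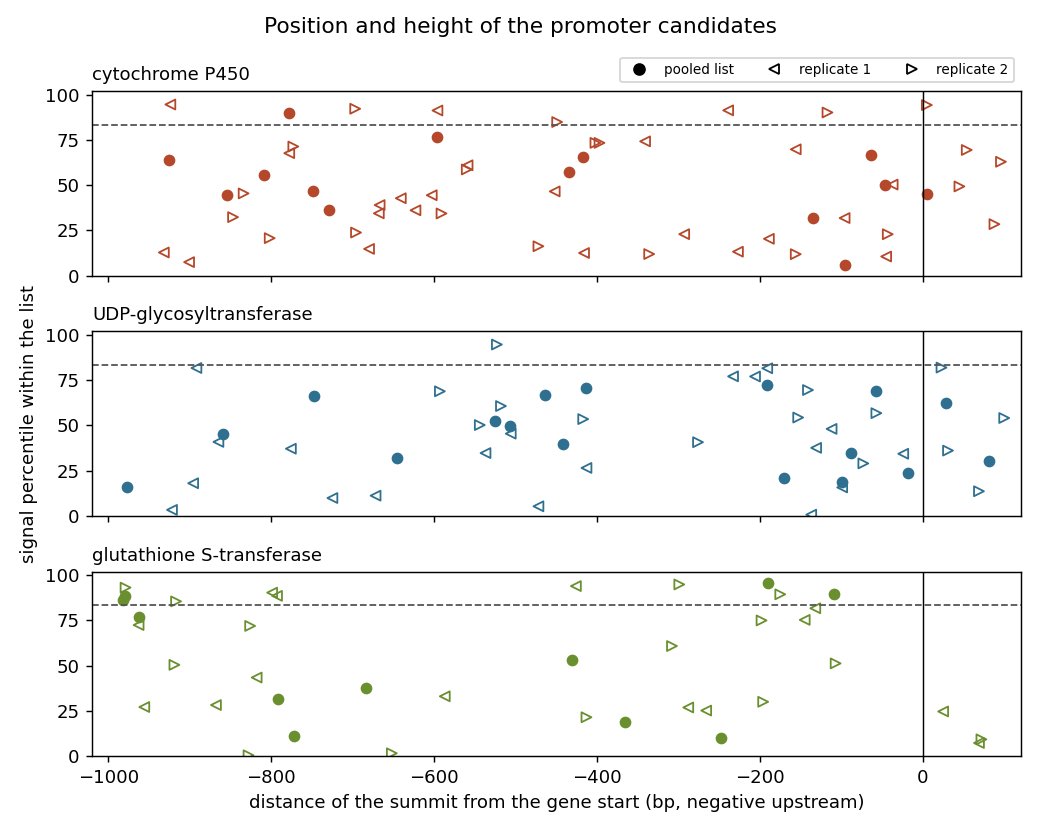
Distance of each promoter candidate's summit from the gene start (bp, negative upstream, horizontal axis) against its signal percentile within its list (vertical axis), for the 3 families. Filled circles are the pooled list, triangles the replicates, the dashed line marks the top 5000 and the vertical line the gene start; the pooled summits of highest percentile in the glutathione S-transferase panel lie either near 190 and 109 bp upstream (gst-7, gst-11) or near 980 bp (gst-33, gsto-1), and no UDP-glycosyltransferase circle lies above the dashed line.

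Many of these genes stand in arrays of neighbouring members of 1 family. With starts no more than 20000 bp apart and at least 3 members, there were 6 arrays of cytochrome P450 genes with 35 members, 4 of UDP-glycosyltransferase genes with 25 and 4 of glutathione S-transferase genes with 25, of which 9, 6 and 5 members had a pooled candidate (25.7%, 24% and 20%). Over all 85 members in arrays the share was 23.5% in the pool, 25.9% in replicate 1 and 27.1% in replicate 2, against 31.1%, 30.5% and 31.2% of protein-coding genes. The cytochrome P450 arrays alone lay above those shares in both replicates, with 12 and 15 of 35 (34.3% and 42.9%), and the UDP-glycosyltransferase arrays below, with 5 and 3 of 25. The array of 9 gst genes on chromosome II from 13608154 to 13630887 had no promoter candidate in any of the 3 lists (gst-20, gst-24, gst-15, gst-14, gst-12, gst-16, gst-19, gst-17 and gst-18). Over all protein-coding genes 50.8% had one in 1 or more lists. The 9 windows are not all separate, since gst-17 and gst-18 start at 13630790 and 13630887 on the same strand. The other array of 9 gst genes, on II from 15163817 to 15185389, had 2 in each list, and these fell on 4 different members. The cyp-33C4 to cyp-33C7 array of 5 genes on V had 3 pooled members, 2 in replicate 1 and 4 in replicate 2. In the array of cyp-13A1 to cyp-13A8 the counts were 1, 3 and 3 of 8, and among the 10 genes of the cyp-35B and cyp-34A array 1, 3 and 2. By named subfamily, the cyp-33 genes had 5, 6 and 8 of 18, the cyp-13 genes 3, 4 and 5 of 13, the cyp-34 genes 1, 3 and 1 of 8, the cyp-14 genes 1, 1 and 3 of 5 and the cyp-35 genes 0, 1 and 1 of 10. The array on X of cyp-14A1 to cyp-14A4 had 1, 1 and 3 of 4.

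Counts were lower at windows with repeated sequence for members together in each list, though not for each family. A window was called unique where at least 99% of its 31-base words occur once in the genome; 74 of the 191 members fell below this (38.7%, against 30.4% of protein-coding genes), among them 40% of cytochrome P450, 32.8% of UDP-glycosyltransferase and 44.9% of glutathione S-transferase genes. Members below it had a pooled candidate in 12 cases (16.2%) and those at or above it in 30 (25.6%), and for protein-coding genes the shares were 22.8% and 34.7%. In replicate 1 the members' shares were 20.3% and 35.04%, against 22.6% and 33.97%, and in replicate 2 they were 24.3% and 26.5%, against 22.97% and 34.8%. Among glutathione S-transferase genes 3 of 22 below and 8 of 27 at or above it had a pooled candidate. In replicate 2 the order was turned for cytochrome P450 genes (30% below, 26.7% at or above) and UDP-glycosyltransferase genes (22.7% and 20%). The gst array without candidates had a median of 92.3% unique words. The part of mappability in the counts was not tested, because neither the read length nor the alignment rules are stated. With unique windows alone, members lay below protein-coding genes in the pool and in replicate 2, and above them in replicate 1. The median GC content was 33.6% in member windows and 34.8% in protein-coding windows. It lay below the protein-coding value for cytochrome P450 (32.8%) and UDP-glycosyltransferase genes (32.9%), and above it for glutathione S-transferase genes (36.1%).

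Inside the genes, beyond 100 bp after the start, candidates were not scarce over all members. In the pool, though, glutathione S-transferase genes lay below protein-coding genes, and at like length cytochrome P450 genes did too. The count inside the genes was added after other values were seen. In the pooled list 111 members (58.1%) held at least 1 summit there, against 52.0% of protein-coding genes. The shares were 61.3% for cytochrome P450, 74.6% for UDP-glycosyltransferase and 30.6% for glutathione S-transferase genes, whose median lengths were 2319, 2519 and 1315 bp. Among members within the middle range of their family's lengths (37, 33 and 25 genes) the pooled shares were 48.6%, 75.8% and 28%, and among protein-coding genes of those lengths 57.8%, 60.8% and 35.8%. At like length only the UDP-glycosyltransferases thus lay above in the pool. In replicate 1 all 3 families lay above (62.2%, 60.6% and 48%, against 56.05%, 58.5% and 35.8%), and in replicate 2 the UDP-glycosyltransferases and glutathione S-transferases did (56.8%, 63.6% and 36%, against 57.6%, 59.9% and 34.8%). Per kb of gene the pooled density was 0.345, 0.423 and 0.234 summits, against 0.311 for protein-coding genes, in replicate 1 it was 0.421, 0.391 and 0.390, against 0.309, and in replicate 2 it was 0.334, 0.332 and 0.343, against 0.313. The density was above the protein-coding value for every family in both replicates, and the family order was not the same in the 2 replicates.

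**Figure D4:**
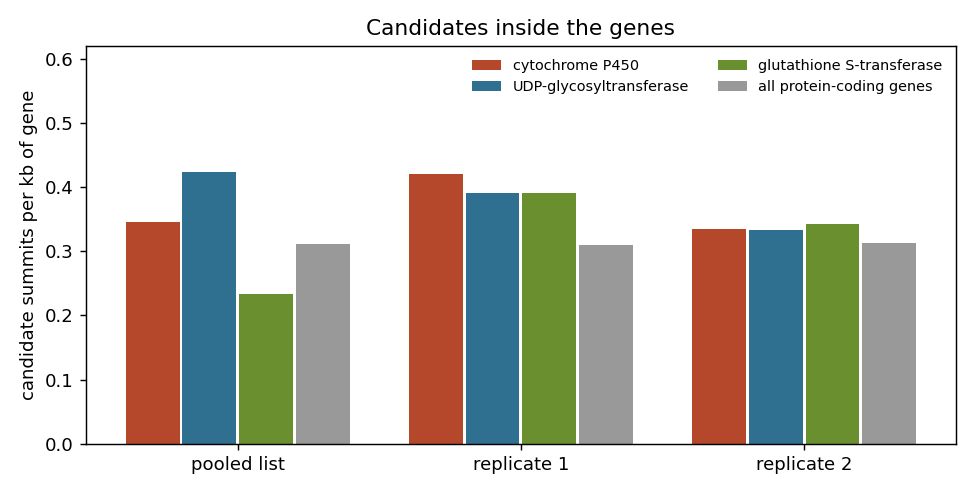
Candidate summits per kb of gene beyond 100 bp after the start (vertical axis) for the 3 families and all protein-coding genes in each list. Bars start at 0 and have no error bar because each is a sum over 1 list; the glutathione S-transferase bar is the lowest in the pool (0.234) and lies above the protein-coding bar in both replicates (0.390 and 0.343).

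The 10 motifs were searched within 100 bp of the 42 pooled member summits on both strands, and compared with 5628 distinct pooled summits at protein-coding promoters. AGTTCA was at 10 members (23.8%, against 13.4%), 5 of them cytochrome P450, 4 UDP-glycosyltransferase and 1 glutathione S-transferase genes. AGGTCA was at 3 (7.14%, against 5.56%). TGATAA, the site of the gut GATA factors, was at 11 (26.2%, against 19.2%), 4 cytochrome P450 and 7 UDP-glycosyltransferase genes and 0 of 11 glutathione S-transferase genes. GCGTG, the core of the aryl hydrocarbon receptor site, was at 4 (9.52%, against 12.2%), and the SKN-1 sequences TTATCAT and TTGTCAT were at 3 and 2 (7.14% and 4.76%, against 5.31% and 4.14%). CCCTGC was at 1 (2.38%, against 2.10%), AGCGCG at 0 (against 2.97%), GAGAGA at 4 (9.52%, against 13.6%) and ACACAC at 3 (7.14%, against 8.23%). Every TTATCAT is also a match to TGATAA, whose reverse complement is TTATCA. The 42 summits include lower-ranked candidates, and a match describes the letters near a summit and is not a site.

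A list of 40 other detoxification genes held the P450 reductase gene, 3 genes of glutathione supply and 1 of UDP-glucuronate supply, 2 epoxide hydrolase genes, 1 sulfotransferase gene, 14 pgp and 8 mrp genes of ABC exporters, and 10 regulators. All were found, and 13 had a pooled promoter candidate (32.5%, against 31.1%), 16 one in replicate 1 (40%, against 30.5%) and 13 one in replicate 2 (32.5%, against 31.2%), with replicate summits matched at 5 (12.5%, against 6.68%) and 0 IDR peaks. The highest were gsr-1, glutathione reductase, with a pooled signal of 24.5 at rank 2981, 53 bp upstream, and values of 16.1 and 8.79 in replicates 1 and 2, the exporter mrp-1 (24.3 at rank 3154, 14.03 and 7.65) and the exporter pgp-9 (22.996 at rank 4376, 11.7 and 8.32). All 3 had the higher rank in replicate 1. For glutathione supply 2 of 3 genes had a pooled candidate, among pgp exporters 5 of 14 and among mrp exporters 3 of 8. The P450 reductase gene emb-8 had one in replicate 1 alone. Of 10 regulators, aha-1 and nhr-176 had one in the pool and in both replicates, and skn-1, nhr-8, nhr-86, daf-12 and ahr-1 had none in any list.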

How the data were processed

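ChIP-seq of eGFP-tagged NHR-237 was analysed from region lists of 2 replicates, their pool and the IDR set. Per the submitters' file lists, the authors called regions against a control and deposited them for ce10 and ce11. For the caller, aligner, read length, depth and IDR threshold the answer is the same: not given in the sources used here. Deposited signal is the authors' value per region, with no stated scale. The deposited score in the place of a q value falls below 0 for part of the regions and was not used. The 4 ce10 lists were not used here. Candidates were assigned by summit, 1-based, to Ensembl release 115 genes. Percentiles are shares of 30000 regions. Replicate summits within 100 bp counted as matched. Shares and medians were set beside those of all 19973 protein-coding genes. There were no p-values, since 1 group allows no test between groups and genes are not replicates. Genes named in the text were the 8 of highest pooled signal per family, those in the top 1000 of any list, those matched with both ranks in the top 10000, and a list of studied genes. The members, lists, motifs and rules were chosen with earlier results of these data known. The assignment was checked on simulated lists. Alternatives varied the window, overlap, start, list, rank, matching distance and motif flank. Python 3.11.15, numpy 2.4.6, pandas 2.3.3 and matplotlib 3.10.9 were used.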

Additional observations from a re-analysis of the deposited data

How the results depend on the processing

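No paired analysis was possible because there is 1 group and no comparison between groups. Of 126 alternative values for families and motifs, 54 stayed near the reported value and 72 moved. Of 127 for named genes, 87 stayed and 40 moved. Near meant within 1.5-fold for counts, and otherwise within the standard deviation of the 2 replicate values, or equal where 1 was missing. A setting that left a named gene without a candidate was not counted, as for cyp-29A4 and gsto-1 with 500 bp upstream. Signals and medians from a replicate list were set against pooled ones on another scale, so those moves do not measure a change. The cause of the other moves was not tested. Families are given in the order cytochrome P450, UDP-glycosyltransferase, glutathione S-transferase. With 500 bp upstream the members with a candidate were 8, 13 and 5 (10.7%, 19.4% and 10.2%, against 18.9% of protein-coding genes), medians were 17.3 and 16.2 for the first 2, and the top 5000 held 0 and 2 members of the first and last. With 2000 bp upstream the members were 35, 39 and 23 (46.7%, 58.2% and 46.9%, against 50.4% of protein-coding genes), the medians 18.6, 18.9 and 16.8, the top 5000 held 5, 6 and 7, and matched summits were at 6 members of each family. In both of these windows the UDP-glycosyltransferase share lay above that of protein-coding genes, and with 2000 bp the share of all members did (50.8%). When any overlap of the region counted, the members were 22, 24 and 14 (29.3%, 35.8% and 28.6%, against 39.2% of protein-coding genes). The medians were then 17.5 for cytochrome P450 genes and 17.2 for glutathione S-transferases. The top 5000 held 2 members of each of the first 2 families, and matched summits were at 2 UDP-glycosyltransferase and 6 glutathione S-transferase genes. With any transcript start the medians were 18.2 and 17.2 for the first and last. Among the top 10000 regions the members were 2, 3 and 5 (2.67%, 4.48% and 10.2%, against 11.3% of protein-coding genes). The medians there were 22.8, 20.0 and 24.0, and matched summits were at 1, 0 and 1. Without shared opposite promoters, 6 glutathione S-transferase genes of 32 had a candidate (18.75%, against 31.1% of protein-coding genes), with a median of 20.9. Matching within 50 bp gave 1 and 0 for the first 2 families, and within 200 bp 5 and 3.

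With 1 replicate list in place of the pool, cytochrome P450 members were 21 to 23, with 3 to 4 in the top 5000, and UDP-glycosyltransferase genes in the top 5000 were 0 to 1. Medians, on the replicates' own scale, were 9.34 to 9.72, 9.12 to 10.04 and 9.32 to 10.2. With 250 bp around the summit the motif shares of members, each followed by that of protein-coding promoter summits, were 14.3% and 12.8% for AGGTCA, 47.6% and 31.2% for AGTTCA, 42.9% and 42.4% for TGATAA, 16.7% and 26.7% for GCGTG, 11.9% and 13.5% for TTATCAT, 11.9% and 10.9% for TTGTCAT, 4.76% and 5.45% for CCCTGC, 2.38% and 6.25% for AGCGCG, 23.8% and 28.2% for GAGAGA and 19.0% and 18.6% for ACACAC. Shares over the replicate lists follow, with those of protein-coding promoter summits in brackets. For AGGTCA they were 8.33% to 8.93% (5.55% to 5.85%) and for AGTTCA 18.8% to 21.4% (13.1% to 13.5%). For TGATAA they were 20.8% to 25% (18.8% to 19.2%) and for GCGTG 4.17% to 10.7% (11.7% to 12.6%). TTATCAT and TTGTCAT both had 5.36% to 8.33% (4.93% to 5.51% and 4.23% to 4.26%). CCCTGC had 1.79% to 4.17% (2.26% to 2.41%) and GAGAGA 8.93% to 14.6% (13.2% to 13.9%). ACACAC had 6.25% to 7.14% (8.12% to 8.26%) and AGCGCG 0% (2.87% to 2.89%). Unknown depth limits every absence.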
